A study of Mus musculus with 3 samples.

Results

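The 4666 regions described here carried an H3K27ac peak in wild-type and in homozygous Arid1a knockout MIN6 cells but none in heterozygous knockout cells. They were found by merging all overlapping peaks of the 3 libraries into 52943 regions on mouse build mm10 and keeping those with a wild-type and a homozygous peak and no heterozygous one. They made up 8.81% of all regions and 19.3% of the 24170 regions shared by wild type and homozygous (Wilson 95% interval 18.8 to 19.8%). The regions were selected on the presence or absence of the authors' called peaks in the 3 lists, so the missing heterozygous peak is their definition and nothing is read from these shares. The pattern is not ordered by the labelled number of intact Arid1a alleles.

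MIN6 is a mouse insulinoma line used as a model of the insulin-secreting beta cell. Per the labels, all 3 genotypes came from cells that expressed Cas9 after lentiviral delivery and blasticidin selection and then received an Arid1a guide RNA lentivirus with puromycin selection. By that description the wild-type cells had also been through Cas9, guide and cloning. Clones were assigned to wild type, heterozygous ARID1A KO or homozygous ARID1A KO by PCR genotyping and Western blotting, and each genotype had 1 library. No replicate exists, so every difference is between 1 clone and another, a genotype and a clone cannot be told apart, and no p-value is given.

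H3K27ac, acetylation of lysine on the tail of histone H3, marks active promoters and enhancers and is deposited mainly by the acetyltransferases p300 and CBP. ARID1A is the subunit that defines the BAF form of SWI/SNF, an ATP-driven complex that slides and evicts nucleosomes, and at enhancers it is known to favour accessible, acetylated chromatin. ARID1B, its paralog, can take its place in the complex. Promoters of widely expressed genes usually lie in CpG islands and carry acetylation in most cell types, whereas enhancers inside and between genes differ more between cell states.

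The wild-type, heterozygous and homozygous lists held 41490, 31365 and 34298 peaks. The lowest local background of a list, used as its relative depth, was 1.25 times higher in wild type than in the heterozygous library and 1.00 times the heterozygous one in the homozygous library. Median summit pile-ups, the reads stacked at the peak's highest point, were 49, 47 and 54. The heterozygous list was thus the shortest, at a lowest background equal to that of the homozygous library. Peaks at the ends of 9 of 10 beta cell marker genes were called in each library, with 3, 1 and 2 of 8 alpha cell markers, 1, 1 and 0 of 8 delta, PP and epsilon markers, 1, 2 and 1 of 10 acinar markers, 4, 4 and 5 of 10 duct and keratin markers, 4, 3 and 2 of 12 mesenchymal markers and none of the immune and endothelial markers in wild type, heterozygous and homozygous. Arid1a itself had 1 such region, with pile-ups of 33 reads in wild type and 25 in homozygous, 249 bp from the nearest heterozygous peak, which does not check the genotype.

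The promoters of 4 of the strongest gene-end regions among them are shown because they differ in base composition and in the motifs they hold while sharing the same peak pattern. Each sequence runs 5' to 3' on the strand of the gene, from 250 bases before to 50 bases after the annotated start, and was taken from RefSeq on GRCm38.p6, the assembly behind mm10. Capitals mark matches on either strand to the GC box GGGCGG (bound by SP and KLF factors), the CCAAT box CCAAT (bound by NF-Y) and the ETS core CCGGAAG. In the Khdrbs2 promoter a GC box and a CCAAT box share bases and appear as 1 run of capitals. The windows are chr6:34780182-34780481 on the plus strand for Agbl3, chr1:136234231-136234530 on the minus strand for Inava, chr1:46066603-46066902 (plus) for Dnah7b and chr1:32172472-32172771 (plus) for Khdrbs2.
Agbl3: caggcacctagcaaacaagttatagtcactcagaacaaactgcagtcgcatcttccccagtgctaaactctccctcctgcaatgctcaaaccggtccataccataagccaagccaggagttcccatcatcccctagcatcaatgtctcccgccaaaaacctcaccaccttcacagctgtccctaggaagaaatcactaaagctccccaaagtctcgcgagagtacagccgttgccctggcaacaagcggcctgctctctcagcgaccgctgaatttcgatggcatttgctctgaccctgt
Inava: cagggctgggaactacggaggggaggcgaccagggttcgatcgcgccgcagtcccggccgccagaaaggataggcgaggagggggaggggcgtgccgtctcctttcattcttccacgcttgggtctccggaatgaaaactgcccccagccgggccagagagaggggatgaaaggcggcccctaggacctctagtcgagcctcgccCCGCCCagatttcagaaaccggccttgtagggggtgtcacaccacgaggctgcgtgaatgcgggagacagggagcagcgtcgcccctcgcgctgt
Dnah7b: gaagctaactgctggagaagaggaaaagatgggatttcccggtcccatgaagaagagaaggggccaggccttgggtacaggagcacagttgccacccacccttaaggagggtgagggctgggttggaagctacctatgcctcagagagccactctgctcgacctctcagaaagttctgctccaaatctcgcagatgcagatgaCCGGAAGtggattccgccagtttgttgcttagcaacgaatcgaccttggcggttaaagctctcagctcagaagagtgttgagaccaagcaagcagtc
Khdrbs2: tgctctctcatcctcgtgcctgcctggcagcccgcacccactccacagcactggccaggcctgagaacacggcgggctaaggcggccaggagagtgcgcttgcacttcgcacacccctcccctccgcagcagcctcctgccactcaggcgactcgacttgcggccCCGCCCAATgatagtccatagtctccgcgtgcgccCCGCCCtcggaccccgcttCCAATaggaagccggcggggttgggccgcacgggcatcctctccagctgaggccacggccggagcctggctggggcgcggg

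The Agbl3 window, with 52.7% G and C and a CpG observed-to-expected ratio of 0.539, held none of the 9 motifs searched. Agbl3 encodes a carboxypeptidase that trims glutamate from tubulin tails. Its region, chr6:34780127-34781386, had pile-ups of 135 reads in wild type and 205 in homozygous and fold enrichments of 14.4 and 15.8, where fold is the authors' ratio of summit to local background within a library. The nearest heterozygous peak lay 96215 bp away. The acetylated summits lay 155 and 161 bases downstream of the annotated start in the 2 libraries, within the first stretch of the gene.

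The Inava window, from a gene for a regulator of innate immune and junction signalling, had 66.0% G and C, a CpG ratio of 0.804 and 1 GC box. Its region at chr1:136234040-136234537 had 66 and 74 reads and folds of 13.7 and 17.4 in wild type and homozygous, and no heterozygous peak within 93289 bp. Dnah7b, which encodes a dynein heavy chain of cilia, had 1 ETS core in a window with 53.7% G and C and a CpG ratio of 0.375, and its region at chr1:46066344-46067339 had 56 and 47 reads and folds of 11.3 and 12.6. Khdrbs2 encodes an RNA-binding splicing regulator, and its window was the richest of the 4, with 70.3% G and C, 2 GC boxes and 2 CCAAT boxes. Only 49 of its 300 bases were inside the region chr1:32172723-32173481, whose summits lay 199 and 195 bases into the gene, with 59 and 48 reads and folds of 11.0 and 13.5. These 4 promoters therefore ranged from CpG-poor to CpG-rich. The nearest heterozygous peak was 270395 bp from the Dnah7b region and 946420 bp from the Khdrbs2 region.

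Over the 399 RefSeq promoter windows, of 369 genes, that overlapped these regions and no region of all 3 libraries or of the mirror pattern, the median G and C content was 59.7% and the median CpG ratio 0.625. Windows that overlapped only regions called in all 3 libraries, 10422 in number, had medians of 62.7% and 0.817, and all 32851 windows had 52.7% and 0.384. A CpG ratio under 0.4 was found in 26.6% of the windows without a heterozygous peak, 6.65% of those acetylated in all 3 libraries and 51.4% of all windows. The mirror pattern, the 3481 regions missing only from the homozygous list (15.1% of the 22985 shared by wild type and heterozygous), gave 441 windows with a median ratio of 0.651 and 23.8% under 0.4. Promoters missing a peak from the heterozygous list thus stood between constantly acetylated promoters and promoters at large, close to those missing one from the homozygous list.

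In the same windows 9 motifs were searched on both strands, the NRF1 site by its name alone. The ETS core (CCGGAAG) was present in 6.52% of windows without a heterozygous peak, 21.0% of those of all 3 libraries, 7.48% of the mirror pattern and 8.86% of all windows. GC boxes were present in 57.4%, 68.7%, 59.9% and 35.7% of these 4 sets. CCAAT boxes were present in 41.9%, 37.6%, 31.3% and 37.4%. The interval of the first share, 37.1 to 46.8%, included the share of the constant promoters. That of the mirror pattern, 27.1 to 35.8%, lay below it. TATA boxes, spelled TATAAA, were found in 4.76%, 5.46%, 9.52% and 13.6%. The AP-1 site TGANTCA was found in 4.26% against 3.98% in constantly acetylated promoters, the forkhead site TGTTTAC in 3.51% against 2.44% and the homeobox site TAATTA in 2.26% against 1.96%. The cyclic AMP response element TGACGTCA was found in 6 of the 399 windows against 3.82%, and the NRF1 site in 0.501% against 2.49%. A match is a run of letters and not evidence of a bound factor, and matches depend on base composition.

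The regions were narrow and of modest height. Their median width was 538 bp (middle 50% from 396 to 758), against 819 bp for the 19504 regions of all 3 libraries. The median fold was 5.06 in the wild-type list and 5.51 in the homozygous list, against 7.13 and 7.72. The median pile-up was 37 and 35 reads, against 83 and 82. In those 19504 regions of all 3 libraries the heterozygous median pile-up was 59 reads, lower than in wild type and homozygous. A percentile rank by fold puts each peak within its own list: the median rank was 38.3 in wild type and 37.5 in homozygous, against 70.7 and 66.9. These regions thus came mostly from the lower and middle part of both lists, and both median pile-ups lay below 47 reads, the median of the heterozygous list.

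Heights varied among the regions, and what height contributed to the missing peaks was not tested. Pile-ups of different libraries are not like for like. Where all 3 libraries had a peak, the medians were 82 reads in homozygous and 59 in heterozygous. In 1624 of the regions missing only from heterozygous (34.8%) the homozygous pile-up reached 47 reads, the median of the heterozygous list. In 933 the wild-type and the homozygous pile-up both did. In 370 (7.93%) the homozygous pile-up was under 17 reads, the 5th percentile of the heterozygous list. A single peak of each library made up 4352 of the regions. Neither peak reached the median −log10 q of its list in 2695 (57.8%), and both did in 505. Of these 505, the 421 with no heterozygous peak within 1 kb are called strong below, which is 3.04% of the 13841 shared regions whose peaks both reached the median, and the regions missing only from homozygous held 397 strong ones by the same rule.

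**Figure D1:**
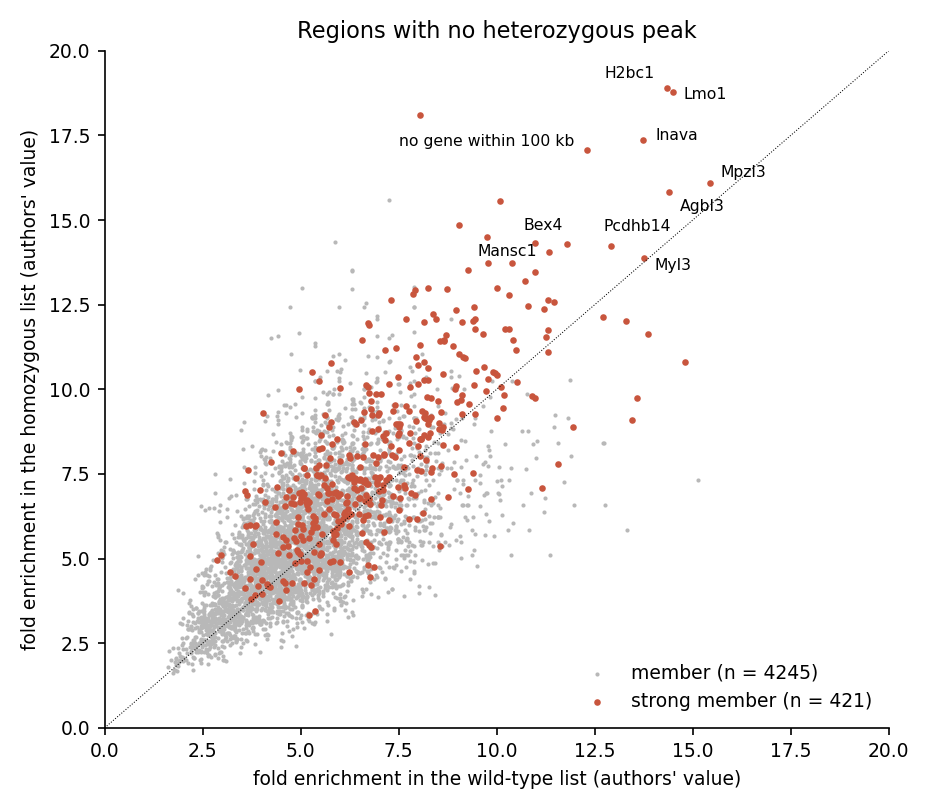
Each point is 1 of the 4666 regions, with its fold enrichment in the wild-type list on the x axis and in the homozygous list on the y axis (both the authors' ratios, linear axes), and the dotted line marks equal values. The 421 strong regions are coloured, and the 10 with the highest lower rank, among them H2bc1 at 14.3 and 18.9, are labelled by gene.

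The summits of the wild-type and the homozygous peak lay a median of 59 bp apart, against 36 bp in regions of all 3 libraries, and within 100 bp of each other in 68.4% against 80.3%. With only regions whose lower rank was 50 or above, the medians were 50 and 30 bp. The folds in the 2 lists had a Spearman correlation of 0.668 over the 4666 regions and 0.843 over the 19504, given as a description across regions of the same 2 libraries. Summits were thus less well aligned in these regions at either range of ranks.

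With the 3 lists limited to their 31365 peaks of highest −log10 q, the regions numbered 2911 and those missing only from homozygous 2830, against 4666 and 3481 with the full lists. By rank, the share of shared regions without a heterozygous peak fell from 36.2% in the lowest of 10 bins to 0.952% in the highest. The same share for the homozygous list, over regions shared by wild type and heterozygous, fell from 27.7% to 0.478%. Regions missing from either knockout were therefore both thinned out towards the top of the lists.

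Place separated these regions from constant ones more than from the mirror pattern. Within 1 kb of either end of a protein-coding gene lay 849 of them (18.2%, interval 17.1 to 19.3%), against 58.8% of regions of all 3 libraries and 20.2% of those missing only from homozygous. Inside a gene lay 2276 (48.8%, 47.3 to 50.2%), against 22.8% and 39.6%. Between genes lay 1541 (interval 31.7 to 34.4%), against 18.4% and 40.2%. The regions missing only from heterozygous thus leaned more towards the inside of genes than those missing only from homozygous. This was not particular to them. Regions called in wild type only lay inside genes in 50.6% and those in homozygous only in 51.9%. The share was 42.4% for regions called in heterozygous only and 41.7% for those in both knockouts but not wild type. No gene end lay within 100 kb of 745 (16.0%) of the regions missing only from heterozygous.

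The scarcity at gene ends was present at every pile-up. Among shared regions with a homozygous pile-up of 41 to 60 reads, a heterozygous peak was missing from 10.9% at gene ends (interval 9.60 to 12.4%), 36.1% inside genes (33.5 to 38.8%) and 30.4% between genes (27.5 to 33.4%). With 20 reads or fewer the shares were 38.9%, 61.8% and 54.4%, and with over 120 reads 0.911%, 7.91% and 7.07%. At matched height, regions inside genes and between genes therefore lacked a heterozygous peak several times more often than gene ends above 40 reads.

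**Figure D2:**
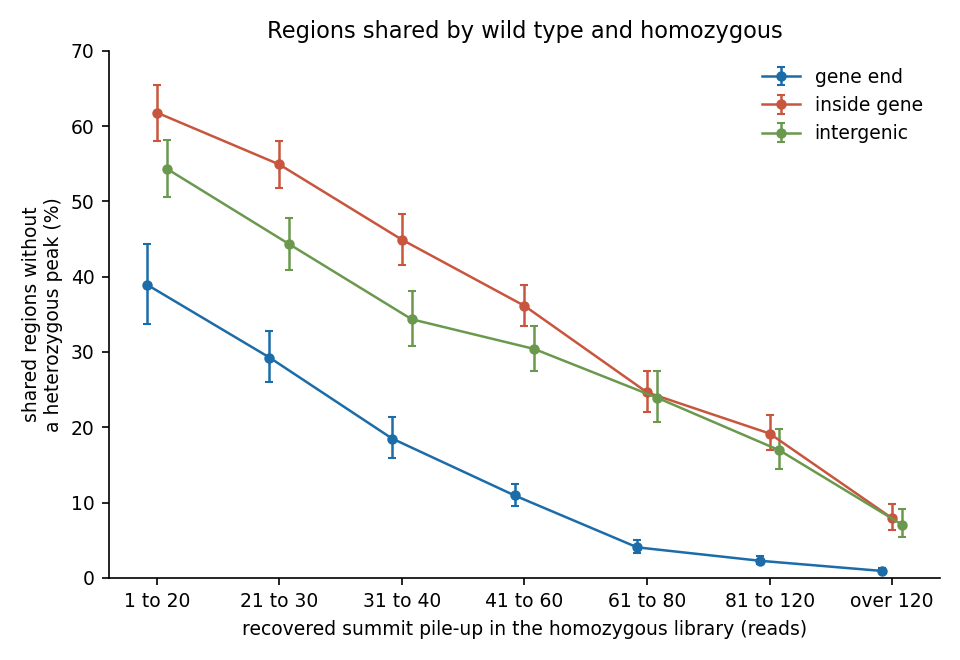
The share of regions common to wild type and homozygous that had no heterozygous peak (y axis, percent) is plotted against the summit pile-up in the homozygous library (x axis, reads in 7 bins) for gene ends, gene interiors and intergenic regions, with Wilson 95% intervals that cover counting error only. The gene-end line lies lowest in all 7 bins, from 38.9% at 20 reads or fewer to 0.911% above 120 reads.

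The distance to the nearest heterozygous peak had a median of 16329 bp. It was within 200 bp for 386 regions (8.27%), within 500 bp for 940 (20.1%) and within 1 kb for 1057 (22.7%), so that in about this share the heterozygous library had a peak beside the region rather than none in the neighbourhood. It was within 100 kb for 4001 (85.7%). At the edge of the rule, the closest cases inside it were a region near Nfil3 whose end met a heterozygous peak with 0 bp between, one near Igfbp4 at 6 bp and one near Tbc1d16 at 15 bp. The closest outside it were a region near Ccdc121 that shared 5 bp with a heterozygous peak, one near Lhfpl2 that shared 19 bp and chr17:39847488-39848278, which shared 22 bp.

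On the chromosomes, the share of shared regions without a heterozygous peak ranged from 15.4% on chromosome 19 (interval 13.1 to 18.2%) to 24.8% on chromosome 12 (22.2 to 27.7%). Chromosome 12 also had the highest share of the mirror pattern, 19.7%. The regions were thus spread over all chromosomes, with a range narrower than that between places or pile-ups.

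The strongest regions were at or near genes that are not hallmarks of beta cells. At chr7:109115212-109116012, 22553 bp from Lmo1, which encodes a LIM-only transcriptional cofactor, pile-ups were 81 reads in wild type and 100 in homozygous, with folds of 14.5 and 18.8 and the nearest heterozygous peak 26272 bp away. Lmo1 also had 5 regions called in all 3 libraries, so its neighbourhood was acetylated in the heterozygous clone too. H2bc1, a testis-type histone H2B gene, had 67 and 64 reads over the gene itself at chr13:23933689-23934050, with folds of 14.3 and 18.9. Reads over histone genes can come from near-identical copies, so this region is uncertain.

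Mpzl3, a gene of the myelin protein zero family, had 103 and 63 reads at its end at chr9:45054758-45055819, with folds of 15.4 and 16.1 and no heterozygous peak within 89170 bp. It had no other region in any library, and the same held for Agbl3. A region 11780 bp from Myl3, a muscle myosin light chain gene, had 100 and 39 reads and folds of 13.8 and 13.9. Mansc1, a membrane protein gene, had 65 and 71 reads inside the gene at chr6:134614931-134615472. The protocadherin gene Pcdhb14 had 40 and 46 reads at its end, in a cluster of similar genes where reads may be shared. Zfp773, a zinc finger gene, had 78 and 75 reads at its end, and a region at chr4:69195765-69196226 with no gene within 100 kb had 38 and 55 reads and folds of 12.3 and 17.1. Bex4, a brain-expressed X-linked gene, was assigned a region 22537 bp away, inside the RNA export factor gene Nxf3, with 50 and 93 reads, and had 32 and 34 reads at its own end. All of these regions were strong by the rule above, so high pile-ups follow partly from the choice. Their pile-ups were above 17 reads, the 5th percentile of the heterozygous list. Some were above and some below 47 reads, the median of that list. What height contributed to their missing heterozygous peaks was not tested.

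When each region was given to the closest gene end no farther than 100 kb, the regions belonged to 2766 genes, 23.5% of the 11750 genes with a shared region. Which gene a region acts on, if any, is not shown by distance. Most had 1 region, 789 had at least 2 and 245 at least 3. In 715 genes (6.09%) all shared regions lacked a heterozygous peak. In 34 genes (1.46% of the 2328 genes with at least 3 shared regions) there were at least 3 such regions and no heterozygous region of any kind. These shares follow from the rule and are given as a description.

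Vwa5b1, which encodes a von Willebrand factor A domain protein, had the most, 8 regions, 5 of them strong. Their pile-ups were 24 to 106 reads in wild type and 19 to 105 in homozygous, and the nearest heterozygous peak was 24046 bp from the closest of them. In the order of position, the wild-type pile-ups were 29, 24, 78, 106, 88, 64, 73 and 28 reads, and the homozygous ones were 29, 26, 97, 105, 100, 64, 79 and 19. The 2 libraries thus had their highest pile-ups in the same 5 regions. The only heterozygous region given to Vwa5b1 overlapped no other peak and had a fold of 4.39.

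There were 9 genes with 6 regions each. Ror2, a receptor kinase for Wnt5a, Galnt14, which starts O-linked glycosylation, and Ntrk3, the receptor for neurotrophin-3, had no heterozygous region at all. Tspan2, a tetraspanin gene, had 7 wild-type regions and 7 homozygous regions but 1 heterozygous region. Utrn, the gene of the dystrophin relative utrophin, had 10 wild-type, 5 heterozygous and 18 homozygous regions. Map2 and Macf1, both for cytoskeletal linker or microtubule proteins, had 12, 3 and 8 and 14, 4 and 13. Car10, a carbonic anhydrase-related gene, had 14, 2 and 10, and Ctnnbl1, a splicing-associated gene, had 20, 10 and 17. Calcoco1, an adaptor gene for turnover of the endoplasmic reticulum, had 5 regions without a heterozygous peak, and 7, 2 and 8 in the 3 libraries. The heterozygous count was thus the lowest in each of these genes, to which the rule contributes by construction.

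**Figure D3:**
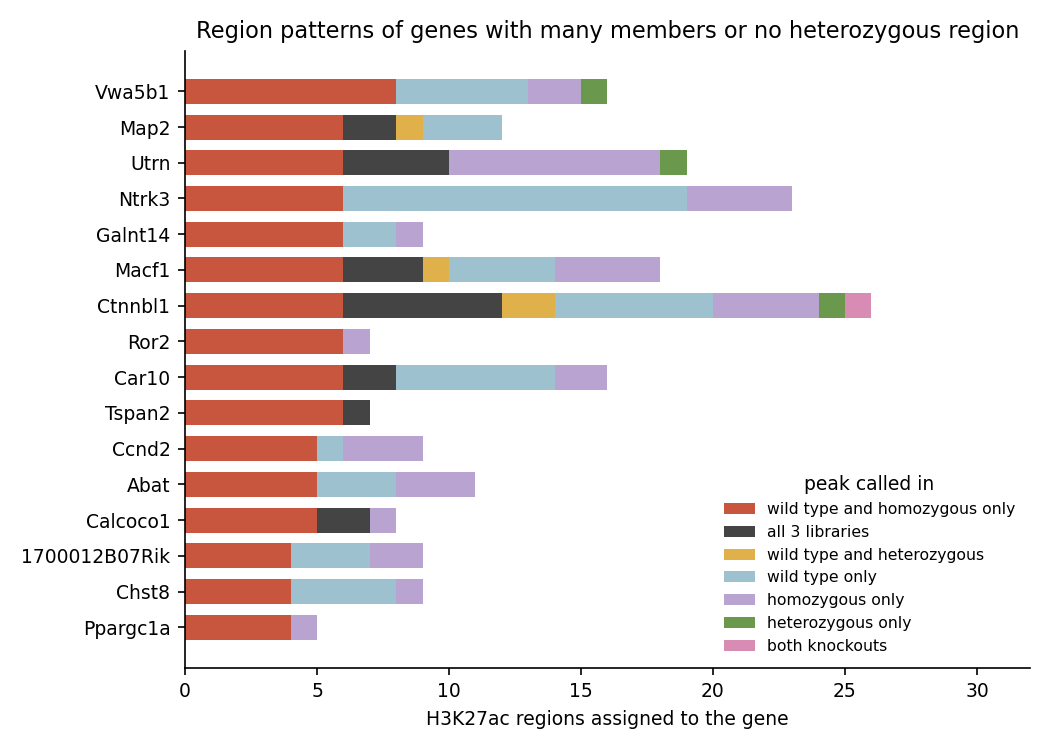
Bars give the number of H3K27ac regions assigned to each of 16 genes (x axis), coloured by the libraries in which a peak was called, for the genes with the most regions lacking a heterozygous peak and those with no heterozygous region. Ror2, Galnt14, Ntrk3, Ccnd2, Abat, Chst8, 1700012B07Rik and Ppargc1a have no segment that includes a heterozygous peak, while 6 of the 26 regions of Ctnnbl1 were called in all 3 libraries.

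At Ror2 the 6 regions had wild-type pile-ups of 18, 13, 40, 36, 25 and 28 reads and homozygous pile-ups of 23, 23, 26, 37, 90 and 28, in the order of position. None was strong, and 1 of them, inside the gene at chr13:53178964-53179668, rose to 90 reads in homozygous with a fold of 11.0 against 4.74 in wild type. At Galnt14 all 6 lay inside the gene, 3 of them strong, with 36 to 87 reads in wild type and 26 to 111 in homozygous, and no heterozygous peak within 94955 bp. Ntrk3 had 31 to 43 reads in wild type and 20 to 47 in homozygous, none strong, and no heterozygous peak within 226305 bp. Its other regions were 13 called in wild type only and 4 in homozygous only, so most of its wild-type regions were missing from both knockouts.

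Ccnd2 encodes cyclin D2, the D-type cyclin on which beta cell proliferation depends in mice. It had 6 regions in wild type, none in heterozygous and 8 in homozygous. The strong region at chr6:127149325-127151016, inside the gene 1172 bp from its end, had 50 reads in wild type and 156 in homozygous, with folds of 7.92 and 6.89. The other 4 shared regions lay 66293 to 93517 bp outside the gene, with 48 and 85, 42 and 60, 35 and 46, and 60 and 17 reads. The 2 libraries did not order these regions alike, and the farthest was the highest in wild type and the lowest in homozygous. Among the other cell cycle genes Ccnd1 had 2 regions, both in homozygous only, and Ccnd3 had 4, 1 and 1.

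Ppargc1a encodes PGC-1alpha, a coactivator of mitochondrial genes. It had 4 regions in wild type, none in heterozygous and 5 in homozygous, with a pair at the gene end of 29 and 19 reads in wild type and 20 and 23 in homozygous. Chst8 encodes a sulfotransferase that modifies the sugar chains of hormones. Its 4 regions had 32, 19, 40 and 29 reads in wild type and 75, 11, 31 and 28 in homozygous, and 2 of them lay at the gene end. The predicted gene 1700012B07Rik had 107, 90, 26 and 23 reads in wild type and 63, 60, 19 and 16 in homozygous, and its regions kept the same order in both libraries. These 3 genes had no heterozygous peak within 73266, 49081 and 53328 bp of any of these regions.

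Among the lists of genes compared, those of the beta cell's glucose response held 22 of 63 shared regions without a heterozygous peak (34.9%, interval 24.3 to 47.2%), against 17.6% over all genes (3921 of 22248). Gene ends made up 22.2% of the shared regions of this list and 55.4% of those of all genes, and regions away from gene ends lacked a heterozygous peak more often throughout, so the lists differ in place as well as in gene. Neighbouring regions of 1 gene are not independent, so the intervals of the lists are no test against the share over all genes. Regions missing only from homozygous numbered 15 in this list. For GalNAc transferases and sialyltransferases they numbered 10, for other receptor tyrosine kinases 9 and for beta cell transcription factors 16. For axon guidance and neuronal adhesion genes they numbered 18, and for cAMP, incretin and prolactin signalling genes 18. Their shares by list were not computed, so whether a raised share is particular to the heterozygous list was not tested. Slc2a2 encodes GLUT2, the main glucose transporter of rodent beta cells. It had 5 regions in wild type, 1 in heterozygous and 8 in homozygous, and all 5 wild-type regions lacked a heterozygous peak. Wild-type pile-ups were 44, 76, 61, 67 and 77 reads and homozygous ones 143, 129, 82, 54 and 78. All 5 were thus above 40 reads in both libraries, and the nearest heterozygous peak was 8519 bp from the closest of them. Their folds were low, 3.29 to 5.38 in wild type and 2.38 to 4.41 in homozygous. Their percentile ranks by fold in the homozygous list were only 1.01 to 18.9, which is to say over a high local background.

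Abat encodes GABA transaminase, which breaks down the GABA that beta cells make, and had 8, 0 and 8 regions. At its end, chr16:8513449-8514232 had 39 reads in wild type and 94 in homozygous, with folds of 8.97 and 10.1, and the other 4 regions had 25 to 48 and 50 to 122 reads. Kcnma1, the BK potassium channel gene, was assigned 3, 0 and 4 regions, of which 3 were shared, with 52, 49 and 51 reads in wild type and 17, 68 and 72 in homozygous, and 217326 bp or more to a heterozygous peak. These 3 belong to a run of 7 inside the gene, 5 of them strong. The other 4 were not assigned to it because no gene end lay within 100 kb. Abcc8, the sulfonylurea receptor subunit of the K-ATP channel, kept 7 regions in all 3 libraries and had 3 inside the gene without a heterozygous peak, with 54, 25 and 28 reads in wild type and 71, 54 and 38 in homozygous. One of these was 287 bp from a heterozygous peak. Kcnj11, the pore subunit of the same channel, had 2 regions, both in all 3 libraries, and the calcium channel gene Cacna1a had 1 of its shared regions without a heterozygous peak.

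**Figure D4:**
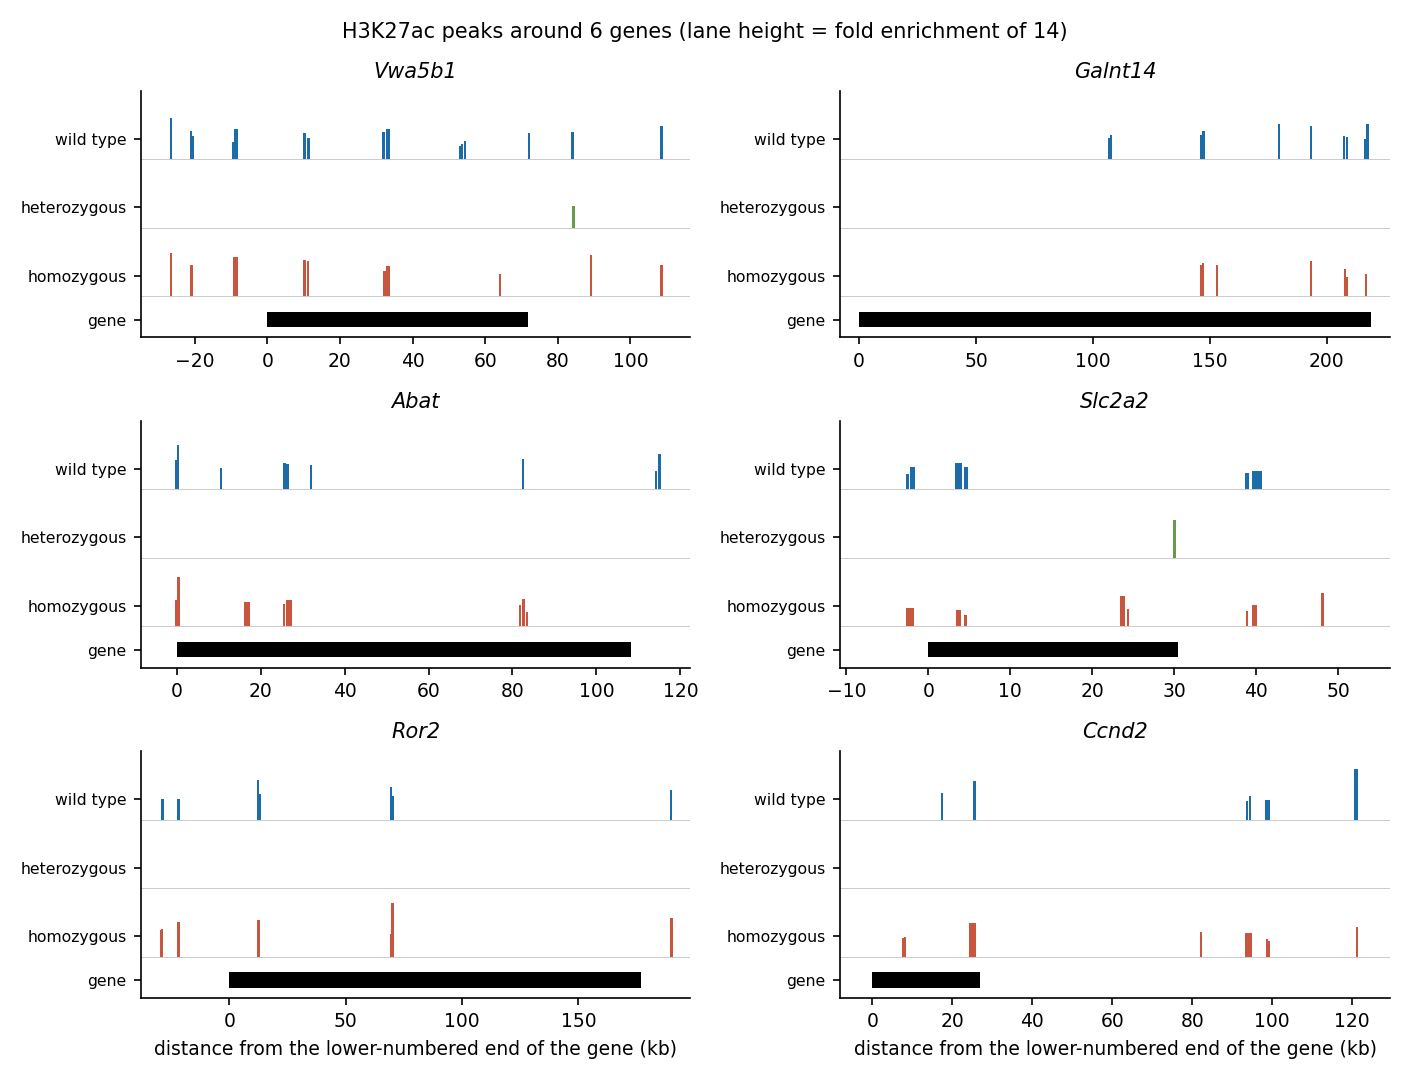
Peaks of the 3 libraries around 6 genes are drawn at their distance from the lower-numbered end of the gene (x axis, kb), 1 lane per library, with bar height proportional to the authors' fold enrichment (a full lane is a fold of 14) and the gene as a black bar. The heterozygous lane is empty at Galnt14, Abat, Ror2 and Ccnd2 and holds 1 peak each at Vwa5b1 and Slc2a2, where wild type and homozygous have 5 or more regions.

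Genes for GalNAc transferases and sialyltransferases, which begin O-linked sugar chains or cap them with sialic acid, held 23 of 42 shared regions without a heterozygous peak (54.8%, 39.9 to 68.8%), with 31.0% of the shared regions at gene ends. Of these 23, Galnt14 had 6 and Galnt10, St8sia1 and St8sia5 had 3 each. St8sia1, a ganglioside sialyltransferase gene, had 47, 90 and 52 reads in wild type and 19, 23 and 27 in homozygous, and its 3 regions lay inside the gene with no heterozygous peak within 70146 bp. Galnt13 and St3gal1 had 2 each, and those of St3gal1 lay 225 and 323 bp from heterozygous peaks. In the same list St6gal1, Galnt17 and St3gal6 had 10, 3 and 2 regions in wild type only and Galnt18 had 12 in wild type only, so the list was not uniform in its pattern.

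Other receptor tyrosine kinases held 19 of 43 (44.2%, 30.4 to 58.9%), with 20.9% of the shared regions at gene ends. Ntrk3 and Ror2 gave 12 of the 19 and Ntrk2, the receptor for BDNF, gave 3. The Ntrk2 regions had 88, 73 and 69 reads in wild type and 145, 177 and 88 in homozygous, but lay 207, 563 and 191 bp from heterozygous peaks, so the heterozygous library was acetylated beside them. Fgfr2, Fgfr4, Epha5 and Ddr1 had 1 region each. Insr, Igf1r and Fgfr1 had none, and each kept 2 regions in all 3 libraries.

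Beta cell transcription factor genes held 17 of 61 (27.9%, 18.2 to 40.2%), and 8 when a heterozygous peak within 1 kb counted as present. The regions of Isl1, a LIM-homeodomain factor, had 129 and 145 reads in wild type and 109 and 146 in homozygous with folds of only 2.07 to 2.66, which is to say over a high local background, and lay 395 and 273 bp from heterozygous peaks. Pax6 had 65, 82 and 139 reads in wild type and 18, 32 and 108 in homozygous, at 1525, 500 and 974 bp from heterozygous peaks. Foxa2 had 2, 1 of them at a gene end and 220 bp from a heterozygous peak. Pdx1, Nkx6-1 and Mafa had 1 each at a gene end, with wild-type folds of 1.84, 2.07 and 3.00. These lay 1463, 288 and 546 bp from heterozygous peaks. Neurod1, Rfx6, Mnx1 and Insm1 had none. Of the factor genes, Hnf4a was the one with a shared region and no heterozygous region, with 42 and 20 reads 6 bp from the gene end and 34229 bp to a heterozygous peak. At Isl1, Pax6, Pdx1, Nkx6-1, Mafa and the gene end of Foxa2 the heterozygous clone was thus acetylated next to or near the regions concerned.

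Insulin and granule genes held 14 of 98 (14.3%, 8.70 to 22.6%). Ins1 and Ins2 had none, with 4 and 2 regions in all 3 libraries. Chga, the chromogranin A gene, had 166 and 147 reads in wild type and 98 and 161 in homozygous at folds of 1.93 to 3.12. These lay 199 and 2971 bp from heterozygous peaks. Cpe, the carboxypeptidase E gene needed for insulin maturation, had 2 regions shared by wild type and homozygous without a heterozygous peak. These 2 lay 4164 and 178 bp from heterozygous peaks. Of its 12 homozygous regions, 3 others were called in homozygous only. Scgn, the gene of the calcium-binding protein secretagogin, had 6, 0 and 3 regions, of which 1 was shared. Genes of cAMP, incretin and prolactin signalling held 11 of 60 (18.3%, 10.6 to 29.9%), close to the share over all genes.

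EGF family ligands, on which the series' interest in EGF signalling bears, held 4 of 12 shared regions (33.3%, 13.8 to 60.9%), a small number of regions. Nrg2 gave 2, both at a gene end, with 33 reads each in wild type and 22 to 32 in homozygous, and had 3, 0 and 2 regions. Btc, the betacellulin gene, gave 1 with 30 and 64 reads, and Hbegf gave 1, which lay 149 bp from a heterozygous peak. ErbB receptors and regulators held 5 of 35 (14.3%, 6.26 to 29.4%), from Ptpn11, Plcg1 and 1 other gene, and Erbb2 and Erbb3 had none. MAPK and immediate early genes held 11 of 73 (15.1%), among them 3 at Phlda1 and 2 at the end of Egr4 with 46 and 26 reads in wild type and 24 and 28 in homozygous.

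SWI/SNF subunit genes held 13 of 59 (interval 13.4 to 34.1%). Smarca2, the BRM ATPase gene, gave 5, none within 15 kb of the gene, with 23 to 46 reads in wild type and 20 to 48 in homozygous. Arid1b gave 3 inside the gene, with 52, 58 and 64 reads in wild type and 28, 29 and 24 in homozygous, and 25067 bp or more to a heterozygous peak. Arid1b had 9 heterozygous regions elsewhere, 6 of them shared by all 3 libraries. Bicra gave 2, at 272 and 342 bp from heterozygous peaks, and Smarca4 gave 1. With lists of equal length the count of this list fell to 7.

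Axon guidance and neuronal adhesion genes held 20 of 78 (25.6%, 17.3 to 36.3%). They held 46 regions when a region inside a gene was given to that gene, since these genes are long. Shared regions were not counted under that assignment, so the 46 give no share. Sdk1, a synaptic adhesion gene, gave 4 with 29, 28, 38 and 64 reads in wild type and 121, 65, 88 and 43 in homozygous. Sdk2 gave 3, and Cntnap2, Nrcam, Nrp2 and Sema6a gave 2 each. Nrp2, a semaphorin receptor gene, had 15, 0 and 4 regions, 13 of them in wild type only. Lysosomal genes held 8 of 40 (interval 10.5 to 34.8%), of which Ctsb, the cathepsin B gene, gave 4 outside the gene with 18, 22, 58 and 66 reads in wild type and 65, 64, 128 and 149 in homozygous, the pair closer to the gene being the higher one in both libraries.

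The remaining lists stood near the share over all genes or held few regions. Type 2 diabetes locus genes held 11 of 60 (18.3%), YAP and TEAD genes 4 of 23 (17.4%), genes disallowed in beta cells 5 of 19 (26.3%, 11.8 to 48.8%) with 3 at Slc16a1, and cell cycle genes 7 of 48 (14.6%), 5 of them at Ccnd2. Housekeeping genes held 2 of 41 (4.88%, 1.35 to 16.1%), with 73.2% of their shared regions at gene ends. Of the marker lists, beta cell markers held 10 of 34 (29.4%, 16.8 to 46.2%), 5 of them at Slc2a2, alpha cell markers 1 of 4, duct and keratin markers 2 of 9, mesenchymal markers 1 of 6, and delta, acinar and immune and endothelial markers none of 3, 1 and 4.

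**Figure D5:**
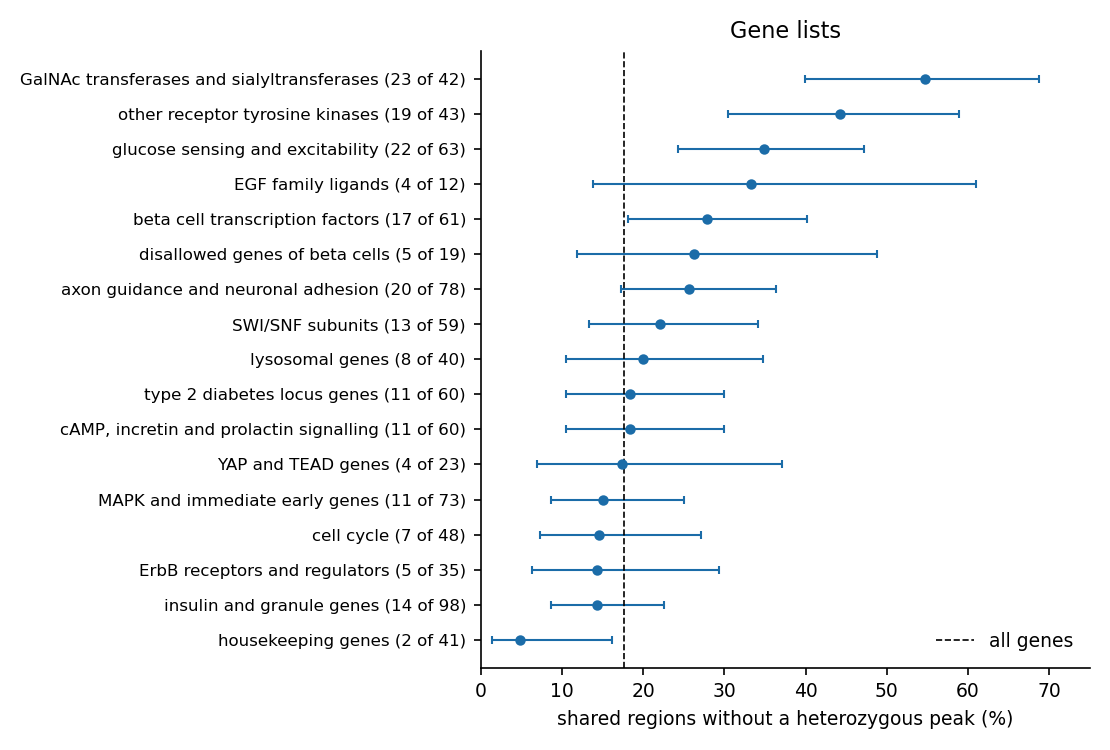
For 17 gene lists, the share of regions common to wild type and homozygous that had no heterozygous peak is shown (x axis, percent) with Wilson 95% intervals that cover counting error only, and the counts stand beside each name. The dashed line is the share over all genes, 17.6%, and the lists run from 54.8% for GalNAc transferases and sialyltransferases to 4.88% for housekeeping genes.

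Successive shared regions without a heterozygous peak formed runs along the chromosomes, although 2315 of the runs were of 1 region and 653 of 2. The longest, 12 regions, spanned chr14:4181727-5149797, a tract of near-identical predicted genes such as Gm2974, Gm3159 and Gm3239. On chromosome 14 before 5.2 Mb, 19 of 22 shared regions lacked a heterozygous peak. Reads there cannot be placed with certainty among the copies, so these regions do not count as separate observations.

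The run of 8 at chr4:138493413-138597922 covered most of those of Vwa5b1 and 1 of Camk2n1, an inhibitor gene of CaM kinase II, with 5 strong regions in 105 kb. Another of 8 at chr13:52981279-53299514 joined Ror2 to Nfil3, a circadian transcription factor gene, with folds of 2.70 to 8.17 in wild type and 3.39 to 11.0 in homozygous. A run of 8 lay inside Rbfox3, the neuronal splicing factor gene known as NeuN, at chr11:118633498-118738980, with 2 strong regions and all 8 over 100 kb from any gene end. The last of these 8 regions was only 130 bp from a heterozygous peak and another was 10859 bp from one. The rest were 24789 bp or more from one. Runs of 9 at chr9:25487200-26806423 and 8 at chr1:129472750-130710287 were spread over more than 1 Mb and included regions with no gene end within 100 kb. The first of these took in Eepd1 with 3 regions and Glb1l2 with 1, and the second Yod1 with 2, from the interior of Pfkfb2. The runs at Vwa5b1 and Rbfox3 were the compact ones among the 6 longest, at 105 kb each.

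Of 1005 miRNA hairpins in the RefSeq table, 3 overlapped these regions, Mir344d-1, Mir344i and Mir6392, against 84 in regions of all 3 libraries. The region over Mir6392 had 40 reads in wild type and 26 in homozygous, that over Mir344d-1 had 27 and 27, and that over Mir344i had 31 and 64 but lay 125 bp from a heterozygous peak. None was strong.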

How the data were processed

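H3K27ac ChIP-seq was read on a NextSeq 500 (75 bp single-end) from 1 library each of wild-type, heterozygous and homozygous Arid1a knockout MIN6 clones. The authors' processing used bcl2fastq, MACS2 and mm10, per the submitters' processing notes, and for the versions, the aligner, the control and the threshold, nothing is given in the sources used here. The deposited lists hold for each peak a score, a fold enrichment (the authors' ratio over local background), −log10 p, −log10 q and a summit position. These deposited values describe or rank peaks within a list only. Read totals are not given, so summit pile-ups and backgrounds were solved from the deposited fold and −log10 p with a Poisson tail to within 0.001. Names of wild-type peaks include the word GAL4, which the labels do not explain.

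Peaks sharing at least 1 bp were merged, and patterns of presence were counted. Python 3.11.15, numpy 2.4.6, pandas 2.3.3, scipy 1.17.1 and matplotlib 3.10.9 were used, the merge was checked with bedtools 2.31.1, and the scripts were tested on simulated data. Regions went to the nearest end, within 100 kb, of 21887 protein-coding genes of GRCm38.p6. Gene ends (within 1 kb) replaced the planned promoter class, since the gene table gives no strand. Intervals are Wilson 95% and cover counting error only. A member of the pattern was called strong as the report states. Named were the 12 genes with the most such regions, the 10 strong regions highest by their lower rank, the 8 leading genes with at least 3 such regions and no heterozygous region, the 6 longest runs, the 8 strongest gene-end regions and listed genes with at least 2, at most 6 per list. All 17 gene lists and 7 marker lists, 1 entry of which matched no gene, and the regions themselves, were chosen with earlier results of these data known. Alternatives covered overlap, list length, −log10 q, width and gene assignment.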

Additional observations from a re-analysis of the deposited data

How the results depend on the processing

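No paired analysis was possible because each genotype has 1 library, and for the same reason no library could be left out. The 4666 regions became 2911 with lists of equal length (31365 peaks each), and 505 with only wild-type and homozygous peaks at or above the median −log10 q. At equal length the mirror pattern had 2830, against 3481 with full lists. With −log10 q of at least 10 for all peaks there were 3753 regions, 709 strong ones and 2308 of the mirror pattern, so the excess over the mirror pattern was smaller under the first setting and larger under the second, and the cause was not tested. The share at gene ends, 18.2%, was 12.4% when a heterozygous peak within 1 kb counted as present, 21.2% at equal length, 26.2% at −log10 q of at least 10, 20.8% for peaks of at least 250 bp, 21.8% at or above the median, 23.3% within 2.5 kb of a gene end and 4.56% for regions overlapping one. In each of these settings the share of regions of all 3 libraries was higher, from 26.9% to 69.4%. The 2766 genes became 381 at or above the median. Without chromosome 14 before 5.2 Mb, an alternative chosen after seeing the data, 4647 regions remained. Counts of the 77 named genes changed by over 1.5 times for 13 (4 to 0, Isl1 and Ntrk2 among them) when a heterozygous peak within 1 kb counted, 30 (6 to 0) at equal length, 31 (10 to 0) at −log10 q of at least 10, 67 (45 to 0) at or above the median, 16 (2 to 0) with peaks of at least 250 bp, 28 (6 to 0) with assignment within 25 kb, 5 (1 to 0) with the surrounding gene first and 10 (all to 0) without the start of chromosome 14. In 370 regions the homozygous pile-up was under 17 reads, the 5th percentile of heterozygous pile-ups, and what depth contributed there was not tested.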
